A study of Caenorhabditis elegans with 8 samples.

Results

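The microRNA genes of Caenorhabditis elegans were examined for nearby peaks of SKN-1, the worm relative of the mammalian stress-response factor Nrf2. All genes annotated as microRNA genes, or whose symbol begins with mir- or is let-7, lin-4 or lsy-6, were taken. This gave 261 of the 46890 genes on the 6 nuclear chromosomes of a RefSeq gene table. Of the 261, 257 met both criteria, 3 had the microRNA biotype alone (Y73B6A.17, B0462.6 and F09A5.15), and mir-1831 had the symbol alone, being listed as an snRNA gene. A gene was called hit in a peak list when a peak summit lay within 1000 bp of it. The rule uses annotation and no measured value.

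The study precipitated chromatin of whole animals carrying SKN-1 tagged with green fluorescent protein, either wild type (WT) or with the activating allele lax188, labelled SKN-1gf(lax188) (GF), to compare where each form sits in the genome. Both genotypes carry the tag, were grown at 20°C on plates seeded with OP50 bacteria, and were precipitated with a Chromotek reagent. The labels give no stage or age and do not say which promoter drives the tagged protein. Of 8 labelled samples, the 4 precipitated ones each have 1 peak list (WT 1, WT 2, GF 1 and GF 2), and the 4 without antibody were not analysed here. Whether replicates came from separate cultures is not stated, so the spread between them may be technical. The lists held 15943, 29541, 25007 and 905 peaks in that order, carry no read counts, and thus leave the depth behind each call unknown. Peak names inside the WT 2 list point to replicate 1 while its positions are not those of the WT 1 list, so only the sample record ties that list to replicate 2. A missing peak is a missing call.

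MicroRNAs are short RNAs cut from hairpin precursors, first by the nuclear enzyme Drosha with its partner Pasha and then by Dicer, and loaded into Argonaute proteins, where they repress messenger RNAs through a short seed sequence. In the worm, lin-4 and let-7 are known for timing larval development, the mir-35 and mir-51 families for embryonic viability, and mir-71 and mir-34 for roles in ageing and stress. MicroRNA genes lie either inside other genes, often in introns, or between genes with promoters of their own. A peak near such a gene may therefore belong to a host or a neighbour.

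The 261 genes numbered 33 on chromosome I, 50 on II, 27 on III, 50 on IV, 28 on V and 73 on X. Their annotated median length was 95 bp, and 258 were under 250 bp; let-7, annotated at 1732 bp, was the longest. The span of a protein-coding gene held 103 of them whole (called intragenic here), and the other 158 were called intergenic. The table gives no exons and no strand, so introns, exons and the side of the promoter were not assigned. Of the intergenic genes, mir-356.1, mir-242 and let-7 overlapped the end of a protein-coding span. Genes within 10000 bp of each other were joined to 198 loci, of which 36 held 2 or more genes and 1 held 11. Members of a locus can share a summit and are not independent.

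WT 1 had a summit within 1000 bp of 101 microRNA genes (38.7%), WT 2 of 153 (58.6%), GF 1 of 128 (49.0%) and GF 2 of 14 (5.36%). By the same rule 33%, 50.8%, 45.8% and 3.19% of all 46890 genes were hit in that order. That total includes 15363 piRNA genes, of which 10.6%, 20.8%, 18.6% and 0.404% were hit. Of the 31527 genes other than piRNA genes, a background chosen after seeing the data, 43.9%, 65.4%, 59.1% and 4.54% were hit, and of protein-coding genes, which are longer, 47.3%, 70.9%, 64% and 5.46%. The microRNA share was thus above that of all genes in each list. Without piRNA genes it was below in WT 1, WT 2 and GF 1 and above in GF 2, and it was below the protein-coding share in each list. Some hit microRNA genes had a summit that also lay within 1000 bp of a tRNA, snRNA or snoRNA gene. These were 8 of 101 in WT 1, 8 of 153 in WT 2, 9 of 128 in GF 1 and 6 of 14 in GF 2. How far such neighbours account for the GF 2 share was not tested. Since other genes differ in length, the share of genome positions within 1000 bp of a summit was also taken, at 26.5%, 45.2%, 39.3% and 1.61%. The microRNA share exceeded it by 12.2, 13.5, 9.76 and 3.75 percentage points, so in 4 of 4 lists, with a mean of 9.79 points (two-sided exact sign-change test over the lists, p = 0.125, the smallest that 4 lists allow). Against genome stretches as long as the median microRNA gene, an alternative chosen after seeing the data, the mean was 8.90 points. Counted by locus, 79 (39.9%), 121 (61.1%), 99 (50%) and 11 (5.56%) of the 198 loci were hit. Loci of several genes are longer than 1 gene and no background of matched length was computed. The locus shares thus do not bear on the excess over genome positions.

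The excess over the genome was larger, as a ratio, near the gene. Within 250 bp, a summit was found at 22.2%, 31.0%, 28.7% and 3.07% of microRNA genes in WT 1, WT 2, GF 1 and GF 2. Genome stretches of the median microRNA gene length had one within the same limit at 9.35%, 17.3%, 14.6% and 0.532%. Within 2000 bp the values were 50.6%, 70.1%, 63.2% and 7.66% for microRNA genes and 43.7%, 66.3%, 60.2% and 3.05% for such stretches. The lines for genes and genome nearly met at 2000 bp in WT 2 and GF 1 and stayed apart in GF 2, whose numbers are small (8 genes within 250 bp, 20 within 2000 bp). At the edge of the rule, 3, 7, 3 and 0 genes had their nearest summit between 900 and 1000 bp, and 3, 3, 3 and 1 between 1000 and 1100 bp, in WT 1, WT 2, GF 1 and GF 2.

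**Figure D1:**
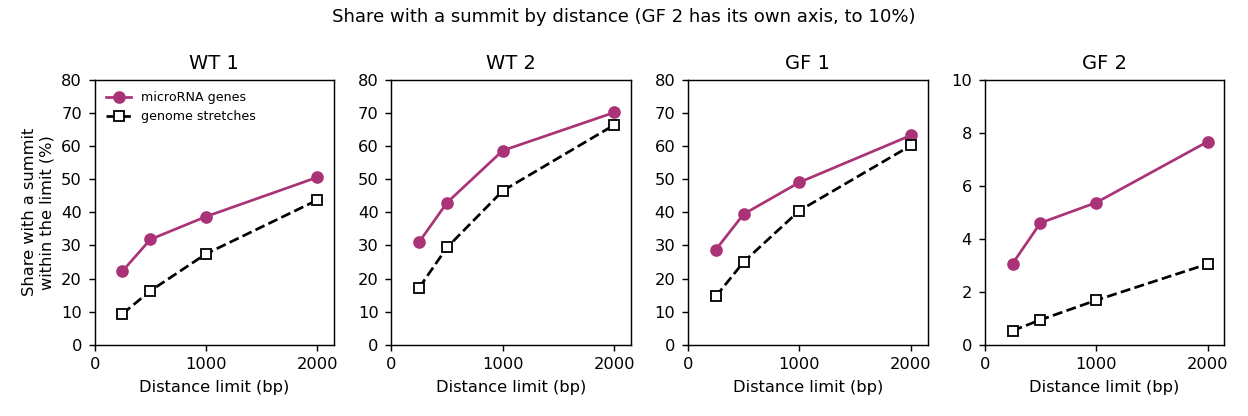
Share of the 261 microRNA genes (filled circles) and of genome stretches of their median length (open squares) with a peak summit within 250, 500, 1000 or 2000 bp, in percent, for each peak list. The microRNA line lies above the genome line at each limit in each list; the axis of GF 2 runs to 10%, the others to 80%.

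The share hit was higher among intragenic than among intergenic microRNA genes in the 3 long lists and lower in GF 2. In WT 1, 51 of the 103 intragenic genes (49.5%) and 50 of the 158 intergenic genes (31.6%) had a summit. In WT 2 the counts were 75 (72.8%) and 78 (49.4%), and in GF 1 they were 67 (65.0%) and 61 (38.6%). GF 2 held 4 intragenic (3.88%) and 10 intergenic genes (6.33%). The mean difference of 16.3 percentage points over the 4 lists had a two-sided exact sign-change p of 0.25, where 0.125 is the smallest possible. This p too was taken over lists read at the same genes. The mean difference was 22.6 points without GF 2, 3.77 points with the limit at 250 bp and 2.01 points with each list cut to its strongest 905 peaks.

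Positions inside protein-coding spans were within 1000 bp of a summit at a higher share than positions outside them, over the whole genome. The shares inside were 28.7%, 50.1%, 43.7% and 1.77% in WT 1, WT 2, GF 1 and GF 2, and those outside were 22.9%, 37.2%, 32.1% and 1.36%. The gap between the classes of position was 5.84, 12.8, 11.5 and 0.407 points, against 17.9, 23.4, 26.4 and -2.45 points between the classes of microRNA gene. Both classes of microRNA gene thus stood above their own positions, by 20.8, 22.8, 21.4 and 2.12 points for intragenic and by 8.76, 12.2, 6.46 and 4.97 points for intergenic genes.

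**Figure D2:**
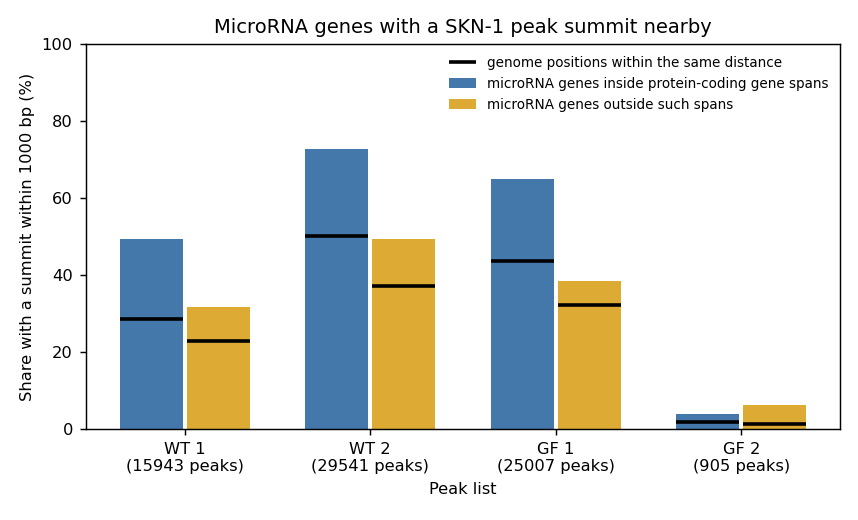
Bars show the share in percent of 103 microRNA genes inside and 158 outside protein-coding gene spans with a summit within 1000 bp, for each peak list; black lines show the share of genome positions of the same class. Each bar stands above its line, and the inside bar is the taller in WT 1, WT 2 and GF 1 and the shorter in GF 2.

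Over the genotypes, the share of microRNA genes hit averaged 48.7% over WT 1 and WT 2 (38.7% and 58.6%) and 27.2% over GF 1 and GF 2 (49.0% and 5.36%). The GF lists lie on either side of WT 1, so the genotypes overlap. The difference of -21.5 points had a two-sided exact permutation p of 0.667, with 0.333 the smallest that 2 lists against 2 allow. It was 0.383 points without GF 2, and 0.766 points when each list was cut to its strongest 905 peaks, the length of GF 2. At that length WT 1 hit 12 microRNA genes, WT 2 hit 5, GF 1 hit 7 and GF 2 hit 14. List length and genotype cannot be told apart in the full GF 2 list.

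Among the small RNA genes of the same table, snRNA genes were hit in 47 (WT 1), 75 (WT 2), 93 (GF 1) and 27 (GF 2) of 129 cases and snoRNA genes in 39.3%, 64.5%, 60.4% and 18.2% of 346. Transfer RNA genes had 27.0%, 43.5%, 42.8% and 2.94% of 612. For snRNA genes this is a share of 72.1% in GF 1 and 20.9% in GF 2. The microRNA shares of 49.0% and 5.36% in these 2 lists lay below those of snRNA and snoRNA genes and above those of tRNA genes, given here without a test. In WT 1 and WT 2 the microRNA share lay below that of snoRNA genes and slightly above that of snRNA genes (36.4% in WT 1).

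By list, 12 microRNA genes were hit in all 4 lists, 73 in 3, 49 in 2, 31 in 1 and 96 in none. The 12 are 4.60% of the microRNA genes, beside 2.17% of all genes and 3.1% of those other than piRNA genes with a summit in all 4 lists. The 96 are 36.8%, beside 41.5% and 26.2% in the same order. Of the 73 in 3 lists, 72 were in WT 1, WT 2 and GF 1, and the remaining gene, mir-4920 inside sph-1, was in WT 1, WT 2 and GF 2 (folds of 1.42, 1.41 and 1.35). GF 2 hit only 14 microRNA genes, so few of the 73 could include it. Shares over all genes were not computed for hits in 3, 2 or 1 lists, and these counts are not read as particular to microRNA genes. WT 1 and WT 2 shared 94 hit genes, 93.1% of the WT 1 and 61.4% of the WT 2 genes, beside 90.7% and 58.9% over all genes. GF 1 and GF 2 shared 12, 9.38% of the GF 1 and 85.7% of the GF 2 genes, beside 6.06% and 87.2% over all genes. The 96 genes without a summit in any list were 22 intragenic and 74 intergenic ones. They include 10 of the 11 genes of the largest locus, on chromosome X, where mir-4807 alone had a summit, in WT 2.

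Peaks at microRNA genes had median folds close to those of their lists. Fold enrichment, the authors' value for each peak over the caller's background, had a median of 1.47, 1.48, 1.58 and 1.55 over the 107, 166, 138 and 14 peaks near microRNA genes in WT 1, WT 2, GF 1 and GF 2. The medians of the whole lists were 1.46, 1.47, 1.55 and 1.51. A fold above 2 was reached by 2, 5, 10 and 3 of these peaks (1.87%, 3.01%, 7.25% and 21.4%), against 2.84%, 3.41%, 6.86% and 6.30% of all peaks. The highest were 2.24, 3.03, 3.40 and 2.57. Some of these summits also lay within 1000 bp of a protein-coding gene. In 70 of 101, 105 of 153, 87 of 128 and 9 of 14 hit microRNA genes, this held for each summit in reach. Of the hit genes, 51, 75, 67 and 4 were intragenic. The share of all summits that near a protein-coding gene was not computed. These counts are thus not read as particular to microRNA genes. For 25, 42, 36 and 2 genes no summit in reach had a protein-coding gene that near.

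The 12 genes of all 4 lists were mir-353, mir-4932 and mir-354 on chromosome I, mir-1831, mir-45, mir-42, mir-43, mir-44 and mir-77 on II, mir-51 and mir-52 on IV and mir-8196.1 on X. Of these, 3 were intragenic and 9 intergenic. With the limit at 250 bp, 6 remained, namely mir-8196.1, mir-1831, mir-77, mir-51, mir-52 and mir-42. With summits moved by 100 bp to either side, all 12 remained in 4 lists. None remained when each list was cut to 905 peaks.

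The microRNA gene mir-8196.1 had the strongest peak of all microRNA genes in GF 1 and in GF 2. WT 1 and WT 2 gave folds of 1.93 and 1.92, GF 1 and GF 2 folds of 3.40 and 2.57. Fold is scaled within each list, so these values are set side by side and were not compared between genotypes. The peaks spanned chrX:2328970-2329195, chrX:2328940-2329173, chrX:2328908-2329253 and chrX:2328965-2329250, and ranked 573, 1468, 54 and 6 by fold in their lists. No protein-coding gene lay within 1000 bp of these summits. Its namesake mir-8196.2, inside the peroxin gene prx-1, had a summit in GF 1 only, with a fold of 2.89.

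At mir-1831 the folds were 1.90, 1.97, 2.75 and 2.06 in WT 1, WT 2, GF 1 and GF 2. This 22 bp gene lies inside C15F1.5, and the snRNA gene sup-39 lay within 1000 bp of the same summits. The protein-coding gene eif-2Bgamma also lay that near the summits in WT 1 and GF 2. At mir-77 the folds were 1.90, 1.67, 2.94 and 1.41, with the snoRNA gene T21B4.20 also within reach. The protein-coding genes srh-70 and ceh-99 lay within reach of its summits in WT 1 and GF 1.

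The mir-51 family, known for its role in embryonic development, was hit at 5 of its 6 genes in WT 1, WT 2 and GF 1 and at 2 in GF 2. Of all microRNA genes, 38.7%, 58.6%, 49.0% and 5.36% were hit in that order, and the difference was not tested. At mir-51 the fold was 1.87, 1.83, 2.18 and 1.83 in WT 1, WT 2, GF 1 and GF 2, over chrIV:11026024-11026317 in WT 1 and chrIV:11026054-11026274 in GF 2. The aldehyde dehydrogenase family gene alh-3 lay within reach of these summits. At mir-52 the fold was 1.54, 2.81, 1.57 and 1.56. The WT 2 peak at chrIV:14033708-14034444 ranked 63 of 29541, and no protein-coding gene lay within 1000 bp of any of these summits at mir-52. The other family genes mir-54, mir-55 and mir-56 lie together inside F09A5.3 on chromosome X with F09A5.15, and share their peaks. Their strongest peak had folds of 2.24, 1.69 and 1.81 in WT 1, WT 2 and GF 1, and GF 2 had none. In WT 1 it was the strongest peak of any microRNA gene (chrX:13144025-13144862). At mir-53, near mir-51, no list had a summit within 1000 bp, and each had one within 2000 bp.

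The mir-35 family, needed for embryonic development, was hit as a whole in WT 2 and GF 1, 2 lists that hit 58.6% and 49.0% of all microRNA genes. Its genes mir-35 to mir-41 lie close together on chromosome II and share 1 broad peak, chrII:11537100-11538311 in WT 2 with a fold of 1.67 and chrII:11537108-11538390 in GF 1 with a fold of 1.81. WT 1 and GF 2 had no summit there. The eighth gene, mir-42, lies elsewhere on chromosome II beside mir-43 and mir-44. These 3 genes share 2 peaks in each list, and the stronger had folds of 1.69, 1.95, 1.81 and 1.44 in WT 1, WT 2, GF 1 and GF 2. The stronger summit lay within 500 bp of each gene in WT 1 and farther away in the other lists. These folds are thus not of 1 site. Within 500 bp the folds were 1.69, 1.57, 1.51 and 1.36 in the same order. The snoRNA gene ZK930.15 lay within reach of both peaks, and the protein-coding gene ZK930.2 within reach of the weaker WT 1 peak. The next gene of that locus, mir-45, had folds of 1.81, 1.52, 2.07 and 1.55 in the same order, with the topoisomerase gene top-2 within reach.

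The last 3 of the 12 were mir-353, mir-354 and mir-4932. Inside the ribosomal protein gene rpl-24, mir-353 had folds of 1.36, 1.49, 1.86 and 1.84 in WT 1, WT 2, GF 1 and GF 2. The small RNA gene D1007.20 lay within reach of the WT 1 summit and of the strongest WT 2 and GF 2 summits. WT 2, GF 1 and GF 2 had 2 peaks in reach, and the values are not of 1 site. The WT 1 peak, chrI:4585443-4585796, does not overlap the strongest GF 2 peak, chrI:4586087-4586429. Inside rps-20, another ribosomal protein gene, mir-354 had 1.52, 1.78, 1.78 and 1.52. Near smn-1, the relative of the human survival motor neuron gene, and the kinesin gene klp-16, mir-4932 had 1.56, 1.80, 1.92 and 1.55, with each summit over 500 bp from the microRNA gene.

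**Figure D3:**
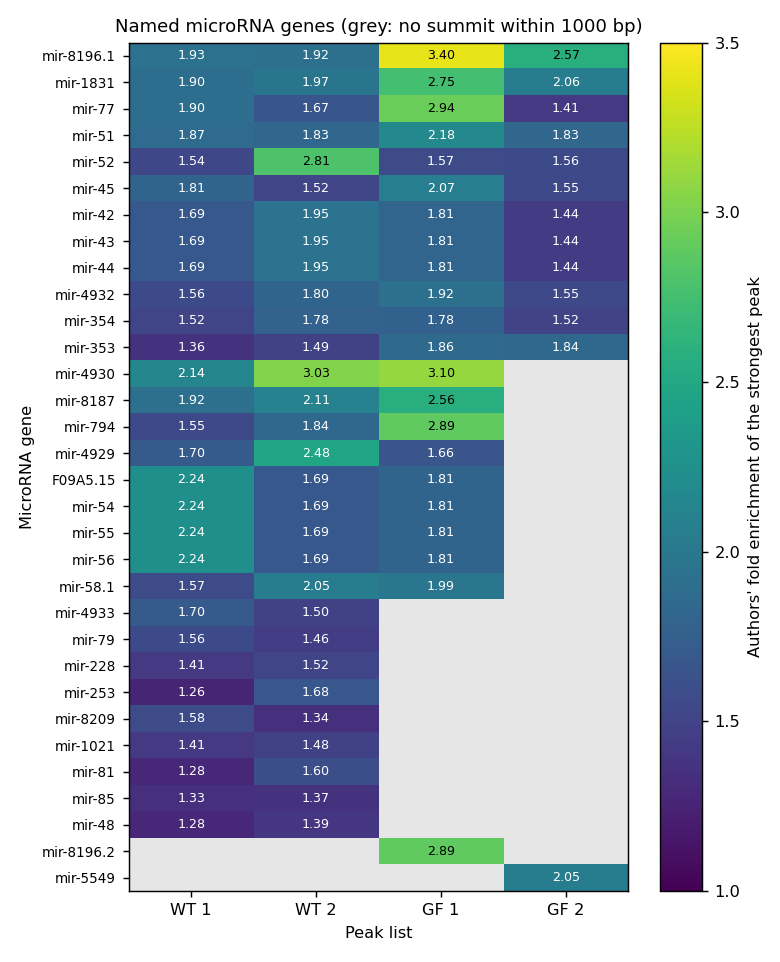
Fold enrichment of the strongest peak with a summit within 1000 bp of each microRNA gene named by rule, by peak list. Grey cells have no such summit, and the strongest peak need not be the same site in each list. The upper 12 genes have a value in all 4 lists, from 1.36 to 3.40; the 9 genes with values in both WT lists only lie between 1.26 and 1.70.

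Genes with the strongest peaks outside the set of 12 were led by mir-4930, inside Y38F2AR.10 on chromosome IV. WT 1 gave it a fold of 2.14, WT 2 of 3.03 and GF 1 of 3.10, and GF 2 had no peak. This was the strongest peak at a microRNA gene in WT 2 (rank 35 of 29541, chrIV:2398083-2398806) and the second in GF 1 (rank 99 of 25007). At mir-8187, inside ech-7, the folds were 1.92, 2.11 and 2.56 in WT 1, WT 2 and GF 1, on a peak of 3247 bp in WT 2 (chrI:14367648-14370894). At mir-794 they were 1.55, 1.84 and 2.89. At mir-4929, inside E01G4.3, they were 1.70, 2.48 and 1.66. In GF 2 the third strongest peak at a microRNA gene was at mir-5549 (2.05, rank 48 of 905). The translation elongation factor gene eef-1A.1 lay within reach of its summit. The other lists had no summit within 1000 bp of mir-5549, but each list had one within 2000 bp. Its place in GF 2 alone thus depends on the limit.

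Both WT lists and neither GF list had a summit at 9 genes: mir-79, mir-228, mir-48, mir-81, mir-85, mir-253, mir-1021, mir-4933 and mir-8209. They are 3.45% of the microRNA genes, beside 2.43% of all genes and 2.91% of those other than piRNA genes. Their folds ran from 1.26 to 1.70 in WT 1, whose list median was 1.46, and from 1.34 to 1.68 in WT 2, whose list median was 1.47. No microRNA gene was hit in both GF lists and in neither WT list, a pattern of 0.0704% of all genes and 0.105% of those other than piRNA genes. GF 2 can hold few such genes at its length, so this split was not tested as a difference. The set is also sensitive to the limit: of the 9 genes, 6 stayed in it at 500 bp and 4 at 250 bp. Named after the values were seen, mir-1020, mir-4937, mir-4811 and mir-8196.2 were hit in GF 1 alone. Beside these 4 genes, 25 were hit in WT 2 alone, 1 in WT 1 alone and 1 in GF 2 alone. The share of all genes hit in 1 list alone was not computed, so these counts are not read as a difference between genotypes.

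The heterochronic microRNAs, which time larval stages, were hit at most genes in the long lists. None was hit in GF 2, which hit 5.36% of all microRNA genes, so its count says little about a group this small. Of the 5 genes, WT 1 hit 4, WT 2 hit 5 and GF 1 hit 4, beside 38.7%, 58.6% and 49.0% of all microRNA genes. This difference was not tested, and let-7, at 1732 bp, has a wider reach than the median gene of 95 bp. At let-7 the folds were 1.51, 1.68 and 1.75 in WT 1, WT 2 and GF 1, and at lin-4, the founding microRNA gene, they were 1.25, 1.52 and 1.44. The lin-4 peak in WT 1 was among the weakest of its list, with 1.64% of peaks lower. Of the let-7 relatives, mir-84 had folds of 1.46, 1.48 and 1.59 in these lists. On chromosome V, mir-48 was hit in WT 1 (1.28) and WT 2 (1.39), and its neighbour mir-241 in WT 2 (1.40) and GF 1 (1.70).

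The mir-58 family, related to insect bantam, was hit at 6 of 7 genes in WT 1 and in WT 2 and at 5 in GF 1, with none in GF 2. Its abundant member mir-58.1, inside the phosphorylase kinase gene phkb-1, had folds of 1.57, 2.05 and 1.99, and mir-80 had 1.52, 1.78 and 1.69. The other members ran from 1.28 to 1.87, and mir-58.2 had no summit. The names mir-58 and mir-1834 of that list matched no gene of the table. Of all microRNA genes, 38.7%, 58.6%, 49.0% and 5.36% were hit in WT 1, WT 2, GF 1 and GF 2, and the family was not tested against them.

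MicroRNAs linked to lifespan and stress had few hits, a difference from the families above that was not tested. Of 10 genes, WT 1 hit 2 (20%), WT 2 hit 2 (20%), GF 1 hit 1 (10%) and GF 2 none. Of all microRNA genes, 38.7%, 58.6%, 49.0% and 5.36% were hit in that order. Several genes of the families above share peaks, so those counts are not of independent genes. Of the 10 genes, 7 were hit in no list, beside 36.8% of all microRNA genes. Those 7 were mir-34, mir-60, mir-83, mir-238, mir-246, mir-239.1 and mir-239.2. At mir-228 the fold was 1.41 in WT 1 and 1.52 in WT 2, and at mir-243 it was 1.44 in WT 2 and 1.54 in GF 1. By the rule mir-71, known to promote long lifespan in worms, was hit in WT 1 only (1.90). Its summits in WT 2, GF 1 and GF 2 lay between 1000 and 1100 bp away, on peaks with folds of 1.97, 2.43 and 1.44, so its place in 1 list depends on the limit. With summits moved by 100 bp in one direction, mir-71 was hit in all 4 lists. The host of mir-71 by span is ppfr-1.

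Of 5 microRNA genes with neuronal roles, WT 1 hit 3, WT 2 hit 4, GF 1 hit 2 and GF 2 none. Of all microRNA genes, 38.7%, 58.6%, 49.0% and 5.36% were hit in that order. At mir-124, inside the channel gene trpa-1 and expressed in sensory neurons, the folds were 1.67, 1.82 and 1.76. At mir-273 they were 1.38, 1.49 and 1.59. No list had a summit at lsy-6, which sets the left-right difference of a pair of taste neurons. The muscle microRNA gene mir-1 was hit in WT 2 (1.57) and GF 1 (1.35).

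**Figure D4:**
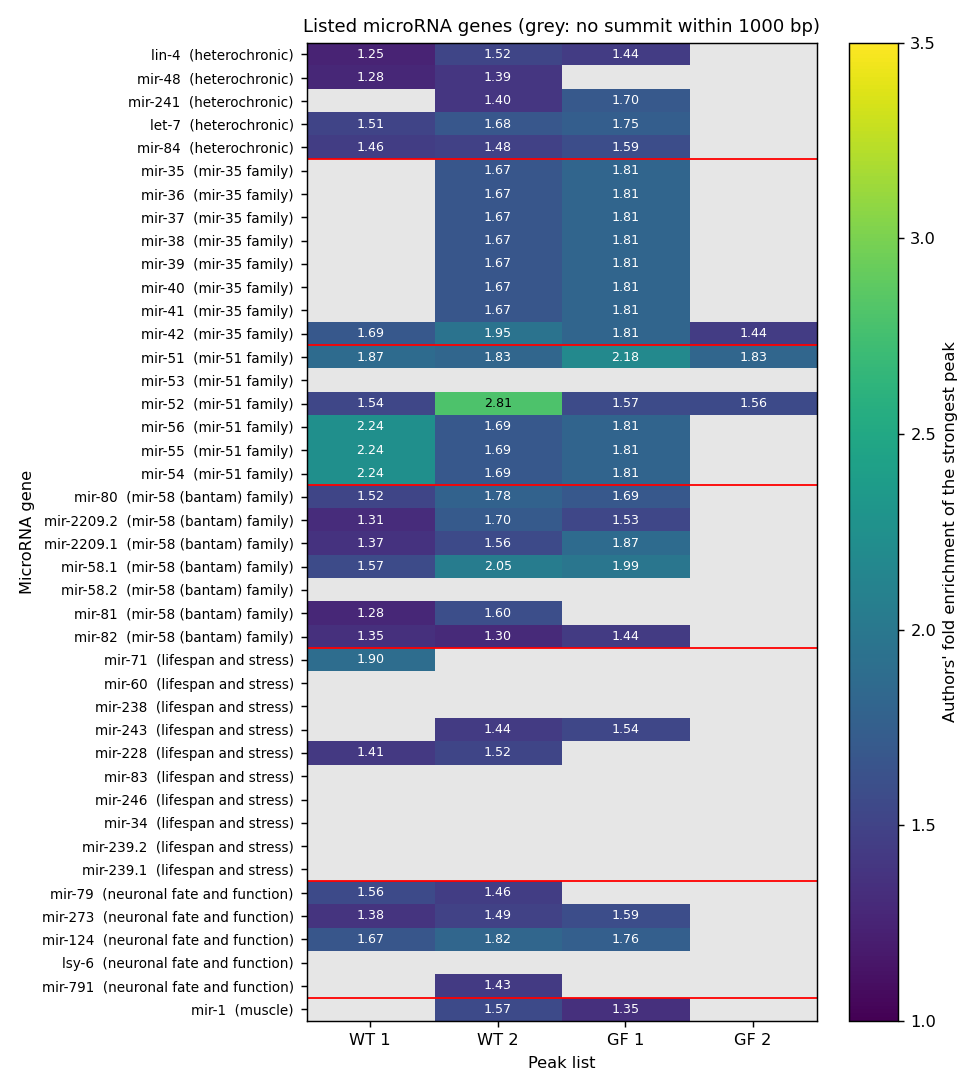
Fold enrichment of the strongest peak with a summit within 1000 bp of each gene of the listed microRNA families and roles, by peak list; grey cells have no such summit, and red lines part the groups. Genes of the mir-51 and mir-58 families have values in most long lists, while 7 of the 10 lifespan and stress genes are grey throughout. Of all microRNA genes, 36.8% have no summit in any list.

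Genes for the proteins of the pathway were measured by the same rule. They are long, and 47.3%, 70.9%, 64% and 5.46% of protein-coding genes were hit in WT 1, WT 2, GF 1 and GF 2. Of 12 processing and effector genes that matched the table, 9, 12, 11 and 4 were hit in that order (the name ntl-1 had no match). The 5'-to-3' exonuclease gene xrn-2 was hit in all 4 lists with folds of 2.02, 2.21, 2.78 and 2.14. The RNA helicase gene cgh-1 (1.80, 1.80, 2.02 and 1.79) and the translational repressor gene ifet-1 (1.38, 1.53, 1.83 and 1.68) were hit in all 4 as well. The Argonaute genes alg-1 (1.77, 1.66 and 1.85) and alg-2 (1.71, 2.01 and 2.05) were hit in the 3 long lists. The Drosha gene drsh-1 was hit in WT 2 (1.91) and GF 1 (1.83). Its partner pash-1 was hit in WT 2 (1.69), GF 1 (1.45) and GF 2 (1.45), and the Dicer gene dcr-1 in WT 2 only (1.47). Of 6 protein-coding targets of the heterochronic microRNAs, 4, 6, 4 and 0 were hit. In WT 1, WT 2 and GF 1 the folds were 1.56, 1.67 and 1.63 at lin-14, the target of lin-4, and 1.42, 1.62 and 1.65 at hbl-1. The let-7 target gene lin-41 was hit in WT 2 (1.57) and GF 1 (1.67).

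By chromosome, the microRNA share exceeded the genome share in most cases. Chromosome III stood highest in WT 1, where 15 of 27 genes were hit (55.6%, genome positions 26.1%), and chromosome II in WT 2 (39 of 50, 78.0%, against 54.2%). On chromosome V, GF 1 hit 10 of 28 genes (35.7%), below the 37.4% of its positions, and GF 2 hit none. On chromosome X, 28, 31, 32 and 1 of 73 genes were hit (38.4%, 42.5%, 43.8% and 1.37%), against 32.5%, 33.3%, 37.5% and 0.668% of positions. Of these 24 combinations of list and chromosome, the 2 of chromosome V just named lay below the genome share.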

How the data were processed

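Each precipitated sample has its own peak list, deposited by the authors without pooling replicates. The submitters' processing notes name build ce10 and the tools MACS2 2.2.7.1, SAMtools 1.10, BWA 0.7.17 and Trim Galore 0.6.4, with no settings and no statement of the control. Per peak, the deposited values are a fold enrichment (a ratio over the caller's background), -log10 p and q values (q at most 0.05) and a score. Folds are scaled within each list; values of different lists are set side by side and were not tested against each other. Depth is unknown, and so is any precision that would follow from it.

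Gene names and neighbours came from a RefSeq table of assembly WBcel235, a build other than the one named for the lists, so no gene position from it and no exact distance from a gene to a summit is given, and summits were also moved by 100 bp either way. Genome shares cover positions up to the last annotated gene of each chromosome. Tests were exact and two-sided over lists, since genes are not replicates. Named genes were those hit in all 4 lists, in both lists of 1 genotype only, and the 5 strongest per list, plus listed families. The members and lists were chosen with earlier results of these data known. The counting was tested on simulated data. Python 3.11.15, NumPy 2.4.6, pandas 2.3.3 and matplotlib 3.10.9 were used. Mature microRNA sequences were not used here.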

Additional observations from a re-analysis of the deposited data

How the results depend on the processing

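The mean excess of microRNA genes over genome positions and the mean intragenic minus intergenic difference kept their sign under each alternative with a value. Their ranges were 1.96 to 13.1 and 2.01 to 22.6 percentage points. By locus, the excess was taken over the same genome positions, although loci of several genes are longer. No p could pass 0.05 in these designs. The difference between genotypes of -21.5 points turned to 0.766 with lists cut to 905 peaks, and leaving out 1 list gave -43.3 to 0.383, the latter without GF 2. A replicate block, exchanging labels only within lists of the same number, left -21.5 points with an exact p of 1; nothing in the labels pairs these numbers. In WT 1, WT 2, GF 1 and GF 2, the count of genes hit moved by over 1.5 times to 58, 81, 75 and 8 at 250 bp and to 48, 93, 76 and 8 with a peak on the gene itself, for which no genome background was computed. It moved to 57 in WT 1 and 9 in GF 2 at a -log10 q of at least 5. In WT 1, WT 2 and GF 1 it moved to 12, 5 and 7 with 905 peaks and to 39, 36 and 49 with 5000 peaks. Other counts over all microRNA genes stayed within 1.5 times, as did 65 of 96 counts by class. Of 95 folds at named genes, 70 were the same at 500 bp, 11 moved and 14 had no peak left; at 2000 bp, 88 were the same and 7 moved. The lists hold no reads, so what depth limits cannot be stated.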
